A study of Mus musculus with 16 samples.

Results

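Engrafted brain macrophages of mice that were never challenged were set against host microglia of mice challenged with lipopolysaccharide (LPS), to ask which activation genes of challenged microglia the resting graft already held and which it did not. The 8 libraries compared were picked by label from the 16 of the series. They were the 4 unchallenged CD45.1 libraries (mice 5 to 8, here the resting graft) and the 4 LPS CD45.2 libraries (mice 1 to 4, here the challenged host). The 4 unchallenged CD45.2 libraries, from the same brains as the resting graft, served as the reference level (the resting host).

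All mice were wild type C57BL/6J bone marrow chimeras. Per the study's text they were 6 weeks old at transplantation and received congenic wild type marrow carrying CD45.1 after whole body irradiation with 950 cGy, so that the host microglia of every group had been irradiated too. The labels give 3.5 or 9 months between transplantation and challenge without assigning either to a sample, while the study's text gives 9 months. Challenged mice received 2.5 mg/kg LPS by peripheral injection 12 h before they were killed, and the others were left without an injection, so that no group controls for the injection itself. From each perfused brain 10000 cells were sorted as Ly6C/G-negative CD11b+ cells that were CD45.1lo (graft) or CD45.2lo (host). Donor origin and challenge differ together between resting graft and challenged host and cannot be told apart in that comparison alone.

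LPS is a bacterial cell wall component that is sensed by Cd14 and Tlr4, which switch on NF-kB and, through a second branch, interferon genes. In the intact brain a peripheral dose reaches microglia largely through blood-borne cytokines and stress hormones, and microglia answer with cytokines, chemokines and acute-phase genes while lowering genes of their resting state, among them P2ry12 and Tmem119. Cells derived from marrow take up the microglial position in irradiated brains but are known to keep a macrophage programme of their own.

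Each library held 565561 to 946753 reads on genes in the resting graft, 677590 to 1024405 in the challenged host and 648933 to 1203597 in the resting host, and levels are given as CPM, the reads of a gene scaled to one number of reads on genes in every library (1 read equals 1.01 to 1.80 CPM in the resting graft and 0.997 to 1.39 CPM in the challenged host), adjusted by the trimmed mean of M values, with single libraries in the order of mouse number. The 10 markers shared by microglia and brain macrophages summed to 42387 to 47619 CPM in the resting graft and 49202 to 55790 in the challenged host. Other cell types were traced by marker lists. The 15 perivascular macrophage markers summed to 2786 to 2948 CPM in the resting graft against 439 to 889.8 in the challenged host, and the 9 monocyte markers to 200.5 to 301 against 17.9 to 54.3. The 12 neutrophil markers summed to 268 to 1248 CPM against 9.66 to 15.95, although the sort removed Ly6G-positive cells. Of the 12, 7 had more than 3 reads in at least 1 resting graft library, against 2 in the challenged host. Cxcr2 and Mpo had no read in any resting graft library. Red cell markers ranged from 15.1 to 5991 CPM among resting graft libraries, and choroid plexus and ependyma markers from 289 to 2194 there and from 518 to 3301 in the challenged host. The part of these cells in the results was not tested, and in such bulk samples fewer cells of a type and less RNA per cell cannot be told apart.

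**Figure D1:**
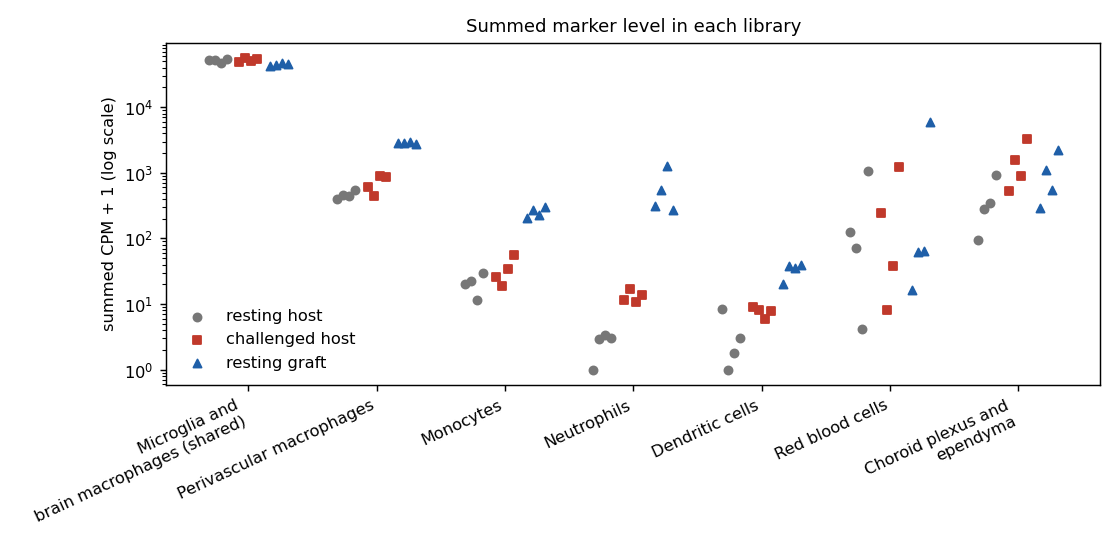
Summed level of marker genes in each library, as CPM + 1 on a log axis, for 7 lists of cell type markers. Each point is 1 library of the resting host (grey circles), challenged host (red squares) or resting graft (blue triangles). The shared microglia and macrophage markers lie between 42387 and 55790 CPM in all 12 libraries, while perivascular macrophage, monocyte and neutrophil markers are higher in all 4 resting graft libraries than in any host library.

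Resting graft, challenged host and resting host each formed a group of their own. On the first principal component, which carried 46.8% of the variance, the resting graft lay between 41.9 and 47.0, the resting host between 1.36 and 3.78 and the challenged host between -54.2 and -40.3. The second component carried 25.7%, with the resting graft at -25.45 to -16.2, the challenged host at -22.9 to -11.2 and the resting host at 38.1 to 41.2. With resting graft and challenged host at opposite ends of the first component, the second is left to set the resting host against them. The nearness of resting graft and challenged host on the second component therefore cannot show that they are alike. Of 8577 genes tested, 1133 (13.2%) were more than 2-fold higher in the resting graft than in the challenged host and 840 (9.79%) were more than 2-fold lower at an adjusted p below 0.05 by edgeR's quasi-likelihood test. The libraries of these groups did not overlap for 3259 genes (38.0%). The median absolute log2 fold change was 0.51 between resting graft and challenged host, 0.45 between challenged and resting host and 0.33 between resting graft and resting host.

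**Figure D2:**
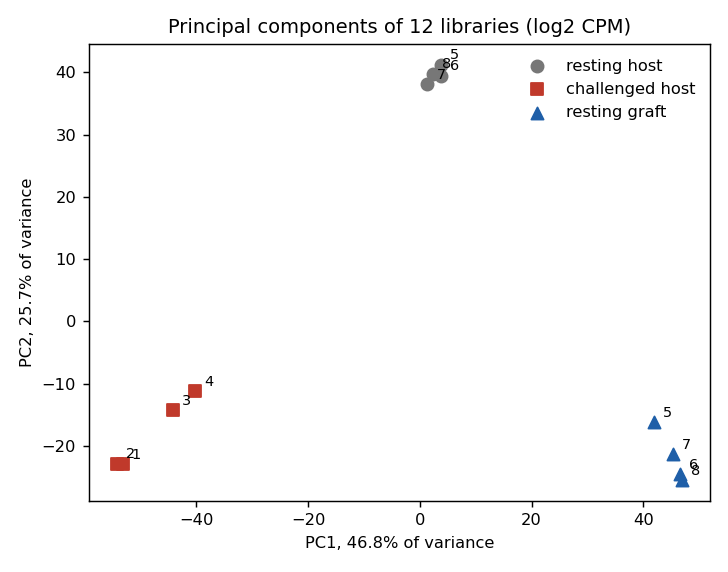
First and second principal component of the 12 libraries (log2 CPM of the genes tested), with the share of variance on each axis and the mouse number beside each point. Resting host libraries (grey circles) sit between the resting graft (blue triangles, right) and the challenged host (red squares, left) on the first component, while on the second the resting graft and the challenged host lie between -25.45 and -11.2 and the resting host between 38.1 and 41.2.

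Activation genes were the 674 genes (7.86% of those tested) that rose more than 2-fold in challenged over resting host microglia. The resting graft held 105 of them (15.6%), meaning that it was called above the resting host and not below the challenged host. It held 21 in part (3.12%), being called above the resting host but below the challenged host. It did not hold 380 (56.4%), being called below the challenged host and not above the resting host, and 168 (24.9%) met none of these rules. Among all genes tested 6.31% were called higher in the resting graft than in the resting host. The 3 comparisons behind these classes share libraries pairwise (challenged host, resting host or resting graft), so the classes describe where each gene lies and the shares are not a test. Of the 105 held genes, 43 had a 95% confidence interval of the graft to challenged host difference that lay within 2-fold. Held counts depended on depth and model: 96 held genes had more than 3 reads in every challenged host library (an alternative chosen after seeing the data), 64 genes were held with a separate fit for each pair of groups, 65 with limma on the study's log2 scale, and 30 with at least 10 reads required in every library.

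Among the held genes, Gpr65, an acid-sensing receptor, came out at one level in resting graft and challenged host. Gpr65 (chr12:99506845-99514932, mm9) measured 36.6, 26.2, 33.5 and 26.6 CPM in the resting host, 427, 335, 452 and 424 CPM in the challenged host and 564, 351, 447 and 421 CPM in the resting graft. Challenged host and resting graft overlapped, and every library of both lay above every resting host library. The resting graft was 3.92 ± 0.19 (log2, SE) above the resting host (adjusted p = 1.17e-14, edgeR) and differed from the challenged host by 0.18 ± 0.15 (95% interval -0.13 to 0.50).

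Lilrb4a, an inhibitory leukocyte immunoglobulin-like receptor, and Dab2, an endocytic adaptor, followed the same order. Lilrb4a rose from 48.7 ± 10.1 (SD, n = 4) to 561 ± 36.9 CPM on challenge and stood at 693 ± 26.1 CPM in the resting graft, 0.36 ± 0.13 (log2, SE) above the challenged host. It has a close paralog, Lilr4b, with which reads could be shared. Dab2 measured 162, 119.6, 169 and 136 CPM in the challenged host and 228, 189, 215 and 184 CPM in the resting graft, against 4.39 to 13.6 CPM in the resting host. The lowest resting graft library of Dab2 lay above the highest challenged host library, and the difference was 0.54 ± 0.16 on the log2 scale (adjusted p = 0.00947, edgeR), less than 2-fold.

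Of the chemokines, 10 of 15 tested rose on challenge (7.86% of all genes tested), and the resting graft held 4 of these 10, against 15.6% of all activation genes. Cxcl2, a neutrophil attractant and classical NF-kB target, measured 4.39, 10.7, 9.57 and 20.4 CPM in the resting host, 213, 283, 104 and 76.5 CPM in the challenged host and 89.6, 80.9, 134 and 184 CPM in the resting graft. The resting graft was 3.42 ± 0.40 (log2, SE) above the resting host and overlapped the challenged host. Cxcl16, a membrane-bound chemokine and scavenger of oxidised lipids, rose from 149 ± 14.5 to 372 ± 138 CPM (SD, n = 4) and stood at 380.5 ± 34.5 CPM in the resting graft. Cxcl9, an interferon gamma target, and Cxcl14 were the others, and for Cxcl9 the resting graft (14.4 to 75.9 CPM) overlapped both host groups. The co-stimulatory receptor Cd40 behaved likewise, at 16.8 ± 7.52, 57.0 ± 40.1 and 70.1 ± 10.4 CPM in resting host, challenged host and resting graft.

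In 25 of the 674 activation genes (3.71%) the resting graft was called more than 2-fold above the challenged host itself. Among all genes tested the share was higher, at 13.2%. Activation genes were chosen for high levels in the same challenged host libraries, so a lower share is built into the choice. Cybb (chrX:9012380-9046450, mm9), the catalytic subunit of the phagocyte NADPH oxidase, measured 32.2, 41.8, 47.1 and 40.8 CPM in the resting host, 250.01, 225, 117 and 83.5 CPM in the challenged host and 963, 1001, 950.3 and 930.5 CPM in the resting graft. No library of one group reached into another, and the resting graft was 2.56 ± 0.22 (log2, SE) above the challenged host (adjusted p = 5.12e-10, edgeR). The chemokine receptor Ccr1 stood at 20.3 ± 6.31, 50.1 ± 26.1 and 151 ± 15.2 CPM in the same order, although its rise on challenge dropped to a log2 fold change of 0.91 without LPS mouse 4. The prostaglandin E2 receptor Ptger4 measured 2.66 ± 2.60, 13.4 ± 7.52 and 60.5 ± 8.47 CPM, and the NAD-consuming ectoenzyme Cd38 measured 1.77 ± 0.90, 7.61 ± 2.42 and 39.0 ± 8.21 CPM.

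Some of these 25 were barely present in the challenged host. Tlr8, an endosomal sensor of RNA, gave at most 3 reads in any challenged host library and at most 1 in any resting host library against 60.4 to 79.2 CPM in the resting graft, so that the graft was at least 19.0-fold above the challenged host when set against a floor of 3 reads per library. Its rise on challenge rested on these few reads and was not called by DESeq2 or limma, nor without LPS mouse 1 or 2 or without host mouse 5, 7 or 8. S100a8, a calcium-binding protein abundant in neutrophils, measured 6.88, 15.0, 7.24 and 2.78 CPM in the challenged host and 66.5, 133, 251 and 79.2 CPM in the resting graft. S100a8 is 1 of the 12 neutrophil markers, and mouse 7, the highest, also had 152 CPM of Camp against 23.4 to 33.2 in the other resting graft libraries. The part of neutrophil RNA in the S100a8 difference was not tested.

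**Figure D3:**
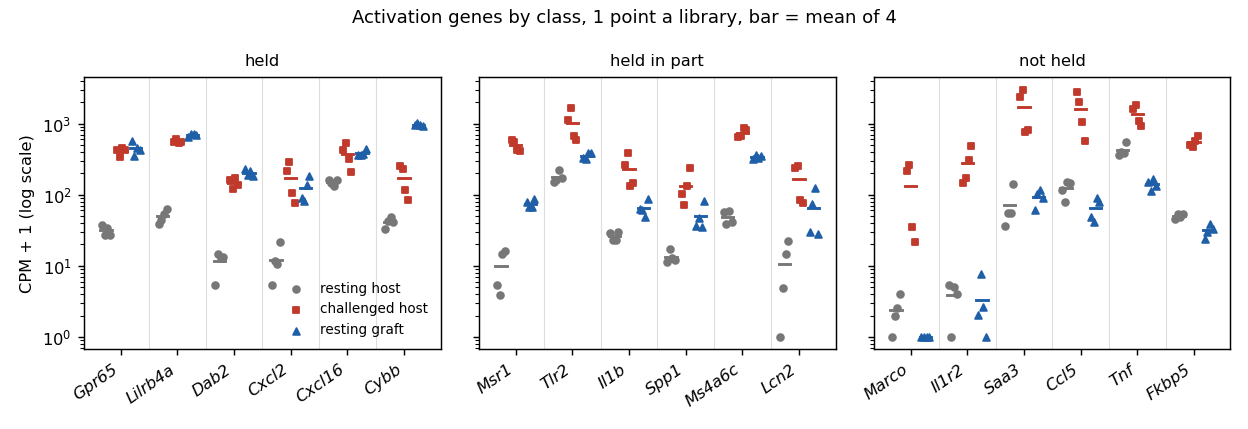
Level of 18 activation genes in each library, as CPM + 1 on a log axis, in 3 panels by class. Points are libraries of the resting host (grey circles), challenged host (red squares) and resting graft (blue triangles), and bars are means of 4. In the held panel blue lies with or above red, and in the right panel at or below grey. In the middle panel the blue means lie between grey and red. Single points can overlap there, as for Spp1, where a blue point lies above the lowest red point.

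In the 21 genes held in part the resting graft sat between the host states. Msr1, the class A scavenger receptor, measured 4.39, 2.91, 13.6 and 15.3 CPM in the resting host, 591, 546, 429.8 and 412 CPM in the challenged host and 77.6, 65.7, 65.5 and 86.4 CPM in the resting graft. No library overlapped between groups, and the resting graft differed by a log2 fold change of 3.00 ± 0.29 (SE) from the resting and of -2.68 ± 0.21 from the challenged host. Clec4a1, a C-type lectin receptor, behaved the same way at 16.4 ± 6.20, 279 ± 145 and 47.8 ± 15.7 CPM (SD, n = 4). Ms4a6c, a tetraspan membrane protein of myeloid cells, stood at 37.9 to 57.4 CPM in the resting host, 643 to 863 CPM in the challenged host and 314 to 361 CPM in the resting graft.

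Tlr2, the receptor for bacterial lipoproteins, measured 151 to 224 CPM in the resting host, 1126, 1644, 670.1 and 583 CPM in the challenged host and 326, 319, 378 and 389 CPM in the resting graft. All resting graft libraries lay above all resting host libraries, but the log2 difference of 1.05 ± 0.23 was close to the threshold of 1 and was not called without host mouse 5 (0.98), host mouse 6 (just under 1) or graft mouse 8 (0.99). Il1b, the interleukin-1 beta gene, was the 1 member of 8 risen cytokines that was held in part, at 61.4, 60.7, 47.5 and 86.4 CPM against 22.3 to 28.6 CPM in the resting host and 130.4 to 389.8 CPM in the challenged host. Spp1, osteopontin, stood at 12.5 ± 2.77, 133 ± 71.3 and 49.0 ± 21.9 CPM, with the resting graft library of mouse 8 (81.0 CPM) above the lowest challenged host library (69.8 CPM). Lcn2, an iron-binding acute-phase protein also made by neutrophils, spread from 27.0 to 123 CPM among resting graft libraries, and its difference from the challenged host (log2 fold change -1.36 ± 0.41) was not called by DESeq2.

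Among the genes not held was Marco, a scavenger receptor of bacterial surfaces. Marco (chr1:122371115-122401661, mm9) had 0 reads in all 4 resting graft libraries, at most 3 reads in a resting host library, and 211, 260.2, 33.8 and 20.9 CPM in the challenged host. This put the resting graft at least 28.6-fold below the challenged host, counted against 3 reads per library. Il1r2, the decoy receptor of interleukin-1, measured 146, 171, 308 and 483 CPM in the challenged host and 1.01, 6.74, 1.64 and 0 CPM in the resting graft (log2 fold change -6.83 ± 0.51, SE). Trem1, an amplifier of innate signalling, had at most 2 reads in a resting graft library against 84.9 to 118 CPM in the challenged host.

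Challenged host libraries were themselves uneven for several of these genes. Saa3, an acute-phase serum amyloid, measured 2354, 3008, 763 and 807 CPM in mice 1 to 4, and Ch25h, which makes 25-hydroxycholesterol, measured 959.9, 1779.7, 197 and 84.9 CPM. Mice 1 and 2 were the higher ones for Saa3, Ch25h, Marco and Ccl5 but the lower ones for Il1r2. The resting graft stayed below every challenged host library of these 5 genes, with 60.4 to 115 CPM of Saa3 and 28.7 to 52.4 CPM of Ch25h. With the mouse as a block Ch25h was also called above the resting host, at a log2 fold change of 1.10 in place of 1.06.

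Of the 20 gene lists, inflammatory cytokines had the lowest median in the resting graft against the challenged host. Of 12 tested, 8 rose on challenge (7.86% of all genes tested did). None of the 8 was held (15.6% of all activation genes were), 1 was held in part and 7 were not held (56.4%). Calls below the challenged host were made for 9 of 12, and the median log2 fold change over the list was -2.28, against 0.02 over all genes tested, where 9.79% were called lower. Tnf (chr17:35336312-35338952, mm9) measured 362, 397, 389 and 556 CPM in the resting host, 1603, 1821, 1082 and 931 CPM in the challenged host and 150.1, 113, 164 and 129.6 CPM in the resting graft. The resting graft thus lay below both host states, with a log2 fold change of -3.23 ± 0.20 (SE) against the challenged and -1.55 ± 0.19 against the resting host. Il1a fell on the same side, at 123 ± 24.3, 293 ± 122 and 26.7 ± 9.91 CPM. Il1rn, the interleukin-1 receptor antagonist, rose to 149.6 ± 115 CPM in the challenged host and stood at 6.71 ± 2.27 CPM in the resting graft, and Il12b, the shared subunit of interleukins 12 and 23, at 38.4 ± 25.5 and 3.86 ± 3.56 CPM.

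Chemokines not held included Ccl3, Ccl4 and Ccl5. Ccl5, a T cell and monocyte attractant, measured 2744, 2010.0, 1036 and 566 CPM in the challenged host and 47.3, 40.5, 90.1 and 79.2 CPM in the resting graft, with a log2 fold change of -4.59 ± 0.36. Ccl4 stood at 1622 ± 197, 3789 ± 1979.9 and 554 ± 90.2 CPM in resting host, challenged host and resting graft, its rise on challenge falling to a log2 fold change of 0.88 without LPS mouse 2. Cxcl10 measured 686, 1357, 170.2 and 186 CPM in the challenged host and 66.6 to 152 CPM in the resting graft, without overlap.

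Of the 18 tested genes of the NF-kB list 8 rose on challenge, against 7.86% of all genes tested, and none of the 8 was held, against 15.6% of all activation genes. Of these 8 genes 6 were not held, against 56.4% of all activation genes, and the remaining 2, Nfkbiz and Tnip1, met no class rule. The resting graft was called below the challenged host in 8 of 18 (9.79% of all genes tested) and above it in none, with a median log2 fold change of -0.94, and no member was called different between resting graft and resting host. Tnfaip3, the ubiquitin-editing inhibitor A20, measured 439, 499.5, 176 and 179 CPM in the challenged host and 85.6, 40.5, 68.8 and 43.2 CPM in the resting graft, whose libraries overlapped the resting host (44.7 to 75.8 CPM). Ikbke, an inducible kinase of the interferon branch, stood at 1.46 to 4.79, 26.4 to 135 and 1.64 to 9.00 CPM in resting host, challenged host and resting graft.

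Of the 20 tested genes for LPS sensing and Toll-like receptor signalling, 7 rose and 4 fell on challenge, against 7.86% and 10.6% of all genes tested. Of the 7, the resting graft held 2 (Tlr8 and Irak3), held Tlr2 in part and did not hold 3 (Tlr6, Tlr7 and Cd14), while Tlr13 met no class rule. The LPS co-receptor Cd14 rose from 454 ± 69.7 to 2372 ± 1074 CPM and was not held, at 606 ± 29.9 CPM in the resting graft. Tlr4, the LPS receptor chain, fell on challenge from 75.8 ± 15.8 to 33.0 ± 3.78 CPM and stood at 85.2 ± 6.63 CPM in the resting graft, above every challenged host library.

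All 14 listed genes of the glucocorticoid response were tested and 9 rose on challenge, against 7.86% of all genes tested. None of the 9 was held, against 15.6% of all activation genes. The resting graft did not hold 8, Il1r2 among them, against 56.4% of all activation genes, while Per1 met no class rule. Fkbp5, a chaperone that restrains the glucocorticoid receptor, measured 43.9, 52.4, 47.9 and 52.1 CPM in the resting host, 502, 474, 576 and 676 CPM in the challenged host and 23.2, 28.7, 37.7 and 32.4 CPM in the resting graft (log2 fold change -4.16 ± 0.19 against the challenged host, adjusted p = 2.61e-15, edgeR). Its challenged host libraries did not split by mouse as those of Saa3 did. Klf9, a hormone-responsive transcription factor, followed with 141 to 161 CPM in the challenged host and 3.28 to 12.6 CPM in the resting graft. Zbtb16, a steroid-induced transcription factor, had at most 4 reads in a resting graft library against 32.9 to 89.5 CPM. The median log2 fold change over the list was -1.55, while the receptor itself, Nr3c1, was called in none of the comparisons.

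Effector and metabolic genes divided. Of 25 oxidative, acute-phase and metabolic effectors 15 rose on challenge, of which 5 were held, 1 was held in part and 9 were not held, where 7.86% of all genes tested rose and 15.6% of all activation genes were held. Besides Gpr65 and Cybb the held ones were ceruloplasmin (Cp), haptoglobin (Hp) and S100a8. The mitochondrial superoxide dismutase Sod2 was not held, with 946, 1382, 310.3 and 219.8 CPM in the challenged host and 48.9 to 67.2 CPM in the resting graft. The metallothionein Mt2 measured 49.0 to 56.6, 613 to 1917 and 27.0 to 37.1 CPM in resting host, challenged host and resting graft, and Acod1, which makes itaconate, at 1.61 ± 1.38, 79.9 ± 63.2 and 4.06 ± 2.32 CPM. Of 16 glycolysis genes 5 rose on challenge and none was held, against the same shares of 7.86% and 15.6%. Of the 5, 4 were not held, against 56.4% of all activation genes, and 1, the glucose transporter Slc2a3, was held in part. With 5 genes these shares cannot set the list apart from all activation genes. Pfkfb3, which drives glycolytic flux, measured 602 to 1279 CPM in the challenged host and 45.5 to 65.5 CPM in the resting graft, below all resting host libraries (91.9 to 138 CPM).

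Like Tnf, Il1a and Pfkfb3, 38 of the 674 activation genes (5.64%) were called lower in the resting graft than in resting host microglia, against 4.91% of all genes tested. The same resting host libraries were used to choose the activation genes, so these shares are not a test. Gpr84, a receptor for medium-chain fatty acids, measured 637, 628, 814 and 723 CPM in the resting host, 2286, 3227, 2194 and 1726 CPM in the challenged host and 99.7, 59.0, 116 and 73.8 CPM in the resting graft. The resting graft was at -4.69 ± 0.21 (log2, SE) against the challenged and -2.94 ± 0.20 against the resting host. Socs3, the feedback inhibitor of cytokine receptors, stood at 523 ± 69.5, 1403 ± 471 and 133 ± 28.9 CPM. C5ar1, a receptor for the complement fragment C5a, stood at 28.9 ± 8.66, 169 ± 26.8 and 6.77 ± 2.29 CPM. Edn1, endothelin 1, had at most 2 reads in a resting graft library, a level at least 9.01-fold below the resting host counted against 3 reads per library. For Pfkfb3 and the Fc receptor gene Fcgr3 the graft to resting host difference lay so near the threshold that leaving out 1 library ended the call, with log2 fold changes of -0.95 to -0.99 for Pfkfb3 without host mouse 5 or graft mouse 5 or 6, and of -0.97 for Fcgr3 without host mouse 8 and -0.99 without graft mouse 7, while leaving out host mouse 6 or graft mouse 8 put Fcgr3 just short of the threshold.

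**Figure D4:**
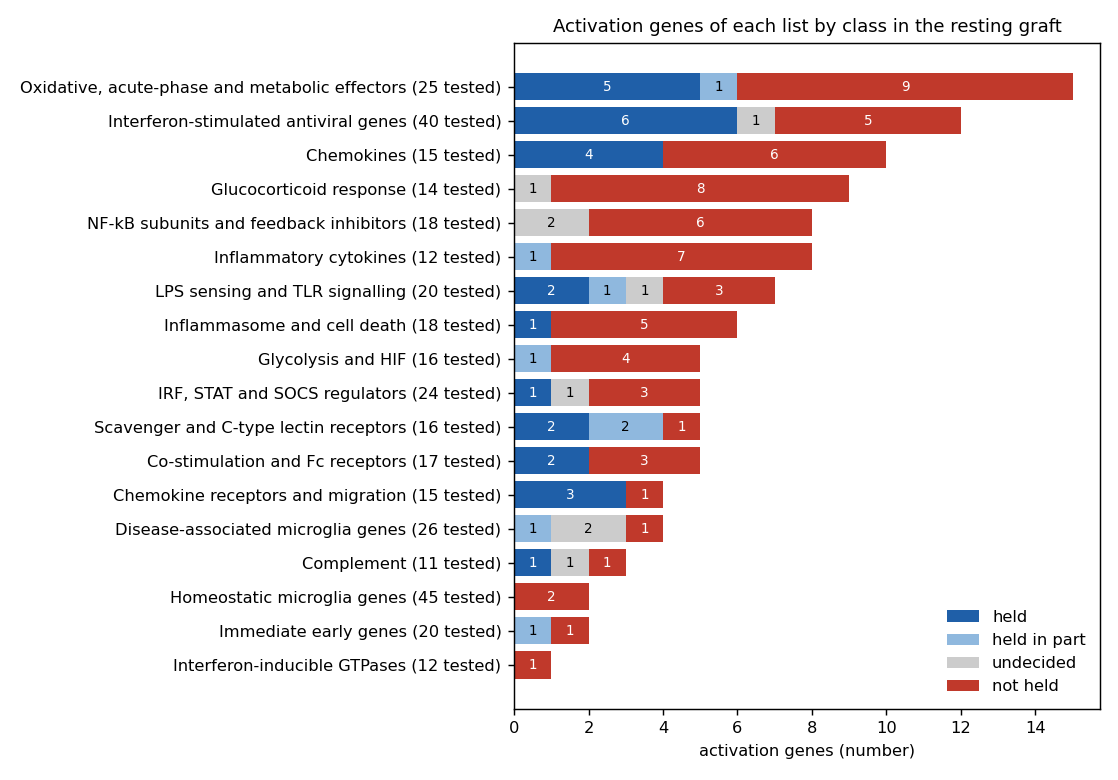
Number of activation genes in each list by class in the resting graft, for the 18 lists with at least 1 activation gene, with the number of genes tested in parentheses. Blue is held, light blue held in part, grey undecided and red not held. Blue segments are missing from 8 lists of 1 to 9 activation genes each, among them NF-kB, cytokines, glucocorticoid response and glycolysis. The antiviral list has the most held genes, 6. Of all activation genes 15.6% were held.

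Interferon-stimulated antiviral genes were the list with the most held genes. Of 40 tested genes 12 rose on challenge (7.86% of all genes tested did), of which 6 were held (15.6% of all activation genes were), 5 were not held and 1 met no class rule. Between resting graft and resting host 14 of the 40 were called higher and none lower, against 6.31% and 4.91% of all genes tested. Ifitm3, which blocks virus entry, measured 54.2, 50.5, 94.9 and 65.4 CPM in the resting host, 173, 179, 171 and 87.6 CPM in the challenged host and 170.2, 239, 328 and 351 CPM in the resting graft. Ifi204, a DNA sensor with near-identical relatives in the same gene cluster, stood at 39.0 ± 11.2, 168 ± 18.6 and 117 ± 28.9 CPM. From the list of interferon regulators, Irf7, which switches on interferon alpha genes, stood at 79.8 ± 9.82, 159.9 ± 37.7 and 164 ± 25.3 CPM, and its rise on challenge lay at the threshold (log2 fold change 1.00 ± 0.18), dropped to 0.87 without LPS mouse 2, and was not called with limma (0.94), with library totals (0.99) or with separate fits (0.99).

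Bst2 was high in the resting graft without having risen on challenge, while Isg15 rose without being held. Bst2, tetherin, measured 379 to 549 CPM in the resting host, 384 to 666 CPM in the challenged host and 1459.6, 1583, 1849.8 and 1856 CPM in the resting graft. Isg15 (chr4:155573533-155574927, mm9), a ubiquitin-like modifier, was not held, with 133, 232, 79.7 and 47.3 CPM in the challenged host and 49.4, 50.6, 52.4 and 50.4 CPM in the resting graft. The Isg15 groups overlapped, and without LPS mouse 2 neither its rise on challenge (log2 fold change 0.75) nor its shortfall in the resting graft (-0.74) was called.

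Promoters were compared because held and not held genes of one pathway could carry the same letters. RefSeq windows (GRCm38.p6, a later build than the counts) from 250 bases before to 50 after each start were found by symbol for 71 of the 105 held and 308 of the 380 genes not held. The letters GAAANNGAAA on either strand, an interferon response element (ISRE-like), were in a window of 13 of 71 held genes (18.3%) and 20 of 308 not held (6.49%). The shares were 268 of 6734 tested genes with a window (3.98%) and 3.99% of all genes with a window. A gene with several windows counted if any of them matched. The letters GGGNNNTTCC on either strand, an NF-kB site (NF-kB-like), were in a window of 5 held genes (7.04%), 30 not held (9.74%) and 7.48% of tested genes. These are counts of letters in a window and not binding sites. The ISRE-like set of held genes included Cybb, Ifitm2, Ifitm3, Ifi207, Ifi211, Slfn5 and Clec2d, and Ifi207 with Ifi211, and Ifitm2 with Ifitm3, are paralogs.

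Windows of a held and a not held gene are shown for each motif, 5′ to 3′ on the gene's strand with the motif matches in capitals. Cybb (chrX:9469275-9469574, minus strand) had 3 ISRE-like matches that began 168, 124 and 29 bases before the start. Isg15 (chr4:156200769-156201068, minus strand) also had 3, which overlap each other and began 78, 72 and 66 bases before the start. Cxcl2 (chr5:90903649-90903948, plus strand) had 3 NF-kB-like matches, a pair of them 1 base apart on opposite strands. Marco (chr1:120504975-120505274, minus strand) had 1, beginning 30 bases before the start.
Cybb, held: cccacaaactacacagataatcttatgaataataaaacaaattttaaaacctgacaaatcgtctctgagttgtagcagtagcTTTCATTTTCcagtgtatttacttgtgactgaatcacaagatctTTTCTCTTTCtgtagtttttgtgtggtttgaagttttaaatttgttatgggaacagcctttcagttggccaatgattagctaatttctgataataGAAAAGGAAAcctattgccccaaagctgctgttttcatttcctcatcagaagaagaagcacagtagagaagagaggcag
Isg15, not held: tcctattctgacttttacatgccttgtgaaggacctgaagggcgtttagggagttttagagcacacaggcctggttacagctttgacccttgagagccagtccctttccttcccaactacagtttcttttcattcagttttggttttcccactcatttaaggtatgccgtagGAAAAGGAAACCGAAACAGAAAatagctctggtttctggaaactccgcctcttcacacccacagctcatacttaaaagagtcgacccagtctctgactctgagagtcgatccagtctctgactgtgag
Cxcl2, held: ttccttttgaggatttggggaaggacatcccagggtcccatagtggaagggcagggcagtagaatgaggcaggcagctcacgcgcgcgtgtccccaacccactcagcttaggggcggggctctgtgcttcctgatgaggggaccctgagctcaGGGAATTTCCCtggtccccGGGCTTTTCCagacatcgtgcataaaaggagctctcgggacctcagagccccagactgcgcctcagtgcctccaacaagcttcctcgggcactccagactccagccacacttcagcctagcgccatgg
Marco, not held: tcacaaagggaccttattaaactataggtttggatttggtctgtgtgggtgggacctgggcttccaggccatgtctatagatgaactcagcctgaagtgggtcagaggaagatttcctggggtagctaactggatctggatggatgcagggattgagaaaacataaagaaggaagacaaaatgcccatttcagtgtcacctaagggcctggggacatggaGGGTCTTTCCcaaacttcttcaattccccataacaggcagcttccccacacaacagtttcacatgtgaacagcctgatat
Cybb and Isg15 thus had as many ISRE-like matches each while the resting graft stood above the challenged host for the one and at the resting host level for the other.

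Genes that fell on challenge gave the mirror comparison. Of 8577 genes 911 (10.6%) fell more than 2-fold in challenged microglia. The resting graft was already low for 152 of them (16.7%), low in part for 22 (2.41%), not low for 527 (57.8%), and 210 (23.1%) met no class rule, while 4.91% of all genes tested were called lower in the resting graft than in the resting host. Separate fits for each pair of groups gave 90 genes already low.

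Among homeostatic microglia genes, 23 of 45 tested fell on challenge (10.6% of all genes tested did) and 2, Runx1 and Adora3, rose (7.86%). Of the 23, 13 were already low in the resting graft (16.7% of all falling genes were), 1 was low in part, 8 were not low and 1 met no class rule. The study had already named several list members as reduced or absent in engrafted cells, among them Slc2a5, Sall1, P2ry12 and Tmem119. The count of 13 is therefore not independent of how the list was chosen. Slc2a5, a fructose transporter, measured 627, 638, 582 and 625 CPM in the resting host, 36.7, 47.9, 48.3 and 37.6 CPM in the challenged host and 37.3, 15.2, 29.5 and 19.8 CPM in the resting graft. P2ry12, the ADP receptor that guides microglial processes, stood at 2317 ± 197, 452 ± 21.2 and 628 ± 62.9 CPM, and Tmem119, a microglial surface marker, at 3132 ± 781, 973 ± 244 and 1168 ± 168 CPM. Adgrg1, an adhesion receptor, measured 649 to 729 CPM in the resting host, 77.8 to 118 CPM in the challenged host and 91.8 to 140.0 CPM in the resting graft, and the difference between the latter groups had a 95% interval of -0.28 to 0.43 on the log2 scale.

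For Sall1 and Upk1b the resting graft lay beyond the challenged state. Sall1, the transcription factor that sets microglial identity, measured 318, 318, 361 and 289 CPM in the resting host, 102, 75.8, 124 and 115 CPM in the challenged host and 19.1, 3.37, 21.3 and 25.2 CPM in the resting graft (log2 fold change -2.52 ± 0.27 against the challenged host, SE). Upk1b, a tetraspanin, stood at 237 ± 24.8, 27.8 ± 10.8 and 4.66 ± 1.58 CPM. They belonged to 24 of the 911 falling genes (2.63%) that were called lower in the resting graft than in the challenged host. Among all genes tested the share was higher, at 9.79%. Falling genes were chosen for low levels in the same challenged host libraries, so a lower share is built into the choice.

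**Figure D5:**
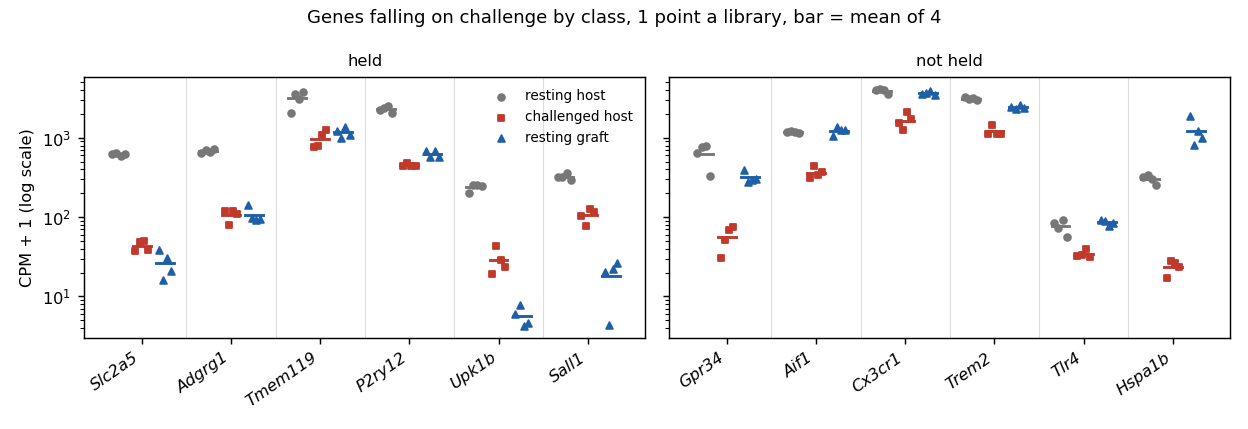
Level of 12 genes that fell on challenge in each library, as CPM + 1 on a log axis, with points for libraries of the resting host (grey circles), challenged host (red squares) and resting graft (blue triangles) and bars for means of 4. On the left blue lies below every grey point, below red for Sall1 and Upk1b and above red for P2ry12. On the right blue lies above every red point.

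Other genes that challenge lowered were not low in the resting graft. Gpr34, a lysophosphatidylserine receptor, measured 29.8, 49.9, 68.8 and 73.7 CPM in the challenged host and 388, 276, 297 and 301 CPM in the resting graft (log2 fold change 2.58 ± 0.25, SE). Aif1, which encodes Iba1, stood at 1183 ± 26.2, 364 ± 56.7 and 1234 ± 143 CPM in resting host, challenged host and resting graft, and the fractalkine receptor Cx3cr1 at 3936 ± 227, 1648 ± 354 and 3665 ± 176 CPM. Trem2, a lipid-sensing receptor, stood at 3120.3 ± 98.0, 1209 ± 175 and 2415 ± 106 CPM, and its resting graft to challenged host difference (log2 fold change 1.06 ± 0.12) dropped to 0.97 when libraries were scaled by their totals. Hspa1b, an inducible heat-shock protein, measured 16.1 to 26.9 CPM in the challenged host and 1876, 823, 1217 and 1002 CPM in the resting graft. Immediate early genes, which tissue dissociation can induce, were called higher in the resting graft than in the challenged host in 7 of 20 and lower in 3, against 13.2% and 9.79% of all genes tested. The part of cell handling in these differences was not tested.

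Genes higher in the resting graft than in the challenged host included many not called for challenge. Of the 1133 genes higher in the resting graft, 549 fell on challenge, 25 rose and 559 were not called for challenge, and of these 559 the resting graft was called different from the resting host for 282 and not called for 277. Clec12a, a myeloid inhibitory lectin, measured 491, 485, 551 and 522 CPM in the resting graft and gave at most 2 reads in any challenged host library, which made it at least 144-fold higher against 3 reads per library. Cmah, the sialic acid hydroxylase, was at least 31.0-fold higher in the same way, at 110.3 ± 13.1 CPM (SD, n = 4). Mgl2, a galactose lectin, and the fatty acid receptor Cd36 stood at 52.6 ± 32.2 and 55.7 ± 23.4 CPM in the resting graft and at 0.55 ± 0.64 and 1.80 ± 2.10 CPM in the challenged host. Ccr2, the monocyte chemokine receptor, measured 84.6, 189, 121 and 227 CPM in the resting graft against at most 2 reads in the challenged host.

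For antigen presentation by MHC class II, 11 genes were tested. The resting graft was called above the challenged host in 8 (13.2% of all genes tested) and below it in 1 (9.79%). None of the 11 rose on challenge (7.86% of all genes tested did) and 3 fell (10.6%). The 3 that fell (H2-DMa, H2-DMb1 and H2-Ob) were among the 8 but were not called between resting graft and resting host. In that comparison 5 genes were called higher and 1 lower, against 6.31% and 4.91% of all genes tested. H2-Aa, a class II alpha chain, measured 34.4, 47.9, 95.4 and 84.9 CPM in the challenged host and 5059, 10819, 5366 and 9159 CPM in the resting graft (log2 fold change 6.93 ± 0.36, SE), and H2-Eb1 33.7 ± 7.79 and 4467 ± 1507 CPM. Ciita, the class II transactivator, had no read in the challenged host and 17.1, 70.8, 18.0 and 41.4 CPM in the resting graft. Mice 6 and 8 were the higher pair for H2-Aa, H2-Eb1, Ciita, Ccr2 and Mgl2, while Clec12a did not follow that order. Summed monocyte markers, which include Ccr2, were also highest in mice 6 and 8 (200.5, 270, 229 and 301 CPM), as were B cell markers (48.4, 77.5, 36.0 and 64.8 CPM), although Cd79a and Pax5 had no read in the resting graft. Dendritic cell markers summed to 19.1 to 37.8 CPM in the resting graft against 4.83 to 8.03 CPM in the challenged host. Their part in the class II levels was not tested. Of 18 class I genes 1 was called higher and 1 lower in the resting graft than in the challenged host, against 13.2% and 9.79% of all genes tested, and none was called on challenge.

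Of 26 tested disease-associated microglia genes, 11 were called higher and 5 lower in the resting graft than in the challenged host, against 13.2% and 9.79% of all genes tested. On challenge 4 rose and 5 fell, against 7.86% and 10.6%, and none of the 4 was held, against 15.6% of all activation genes. The 5 lower genes were Spp1, Cst7, Cd9, Csf1 and the cathepsin Ctsl, with log2 fold changes from -2.96 for Cst7 to -1.29 for Cd9. Apoe, the lipid carrier, measured 55859, 69202, 78528 and 72026 CPM in the resting graft against 2768 to 4459.9 CPM in the challenged host, and Axl, a receptor for dying cells, stood at 714 ± 36.8 against 77.9 ± 18.5 CPM. Mrc1, the mannose receptor, stood at 403 to 454 against 9.66 to 18.3 CPM, which like Cd36 and Mgl2 is 1 of the 15 perivascular macrophage markers described above. Spp1, described above, was the 1 gene of this list held in part.

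Among further genes of the study's challenge response, Pirb, an inhibitory receptor, stood at 107 ± 10.3, 199.9 ± 21.6 and 121 ± 49.0 CPM in resting host, challenged host and resting graft and was called in none of the comparisons. Ccl6 stood at 174 ± 15.3, 88.9 ± 15.7 and 72.5 ± 22.5 CPM and was called only as lower in the resting graft than in the resting host. Clec4e fell under the filter on low counts, at 6.88, 5.98, 4.83 and 2.78 CPM in the challenged host and 2.01, 0, 3.28 and 7.20 CPM in the resting graft, which overlapped (exact permutation test of 4 against 4 libraries, two-sided, p = 0.314, the smallest possible p being 0.029).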

How the data were processed

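RNA was sequenced from sorted engrafted and host brain macrophages of 8 mice (16 libraries). According to the labels and the study's methods, the authors aligned reads to mm9 with HISAT (version 0.1.5 in the submitters' processing notes) and counted uniquely mapped reads over exons on the sense strand with HOMER, and the deposited table gives these raw read counts for 24411 genes without normalization. Gene coordinates are those of the table. No column of per-sample values was left unmapped.

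The 12 libraries of resting graft, challenged host and resting host were fitted together in edgeR 4.0.16 (R 4.3.3, limma 3.58.1) with TMM scaling, the filterByExpr filter (minimum count 10, minimum total 15, 8577 genes left) and quasi-likelihood tests, with p-values adjusted by Benjamini-Hochberg over all genes tested. Calls needed both a change of more than 2-fold in either direction and an adjusted p under 0.05. SE is the log2 fold change divided by the root of F, and intervals are 95%. Against a group with no more than 3 reads in any library, folds are bounds computed at 3 reads per library. Such bounds cover counting error only. The fit was tested on simulated data. Replicates are separate mice.

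Resting graft and resting host came from the same animals (mice 5 to 8), which pairs them. Deviations from the group means correlated at 0.03, -0.03, 0.03 and 0.07 within mice, and 2 of 4 libraries correlated best with their own mouse. DESeq2 1.42.0, limma on the study's log2 scale, other scalings, filters and fits, the mouse block and leaving out each library were tried as alternatives.

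The members and lists were chosen with earlier results of these data known. Genes named were, per list, at most 4 with the largest change on challenge plus those a count turns on, per class the 6 with the largest change on challenge at a mean of 50 CPM or more, the 6 per direction that differed most without overlap, and the genes the study names for challenge. Further genes, among them those named solely for a motif or as paralogs, were picked after their values were seen.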

Additional observations from a re-analysis of the deposited data

Results flagged for a closer look

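In 31 of 501 groups of 4 libraries tested, 1 library lay far from the other 3 by Dixon's criterion, which chance meets in about 1 in 20 groups. In the resting graft, mouse 7 held 152 CPM of Camp, a neutrophil granule peptide, where the others had 23.4 to 33.2, and 11.5 CPM of Cd180, a relative of Tlr4. Mouse 5, the deepest of the resting graft with 946753 reads on genes against 565561 to 609870, was high for Adgrg1 (140.01 CPM) and low for Psme1 (376 CPM), Cd93 (106 CPM) and Rgs10 (698 CPM). Mouse 6 was low for Cd14 at 561 CPM, against 617 to 623. Mouse 8 was high for Ccl6 (106 CPM) and Cxcl16 (431.9 CPM) and low for Gbp2 (7.20 CPM).

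In the challenged host, mouse 2 was high for Bst2 (666 CPM against 384 to 407), Psme1 (809.6 CPM), P2ry2 (77.8 CPM) and Trem2 (1471 CPM). Mouse 4 was low for Ifitm3 (87.6 CPM against 171 to 179) and Stat2 (94.6 CPM) and high for Prpsap2 (52.9 CPM). Mouse 3 was high for Psmb9 (86.9 CPM) and Tlr4 (38.6 CPM), and mouse 1 was low for Rgs10 at 359 CPM.

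In the resting host, mouse 7 was high for Cxcl10 (247 CPM against 101 to 121) and Cd40 (27.9 CPM) and low for Bcl3 (18.3 CPM). Mouse 8 was high for Apoe (7437 CPM against 3847 to 4262) and low for Cd180 (25.5 CPM), C3ar1 (254 CPM) and Gm5086 (36.8 CPM). Mouse 5 was low for H2-M3 (57.1 CPM) and Upk1b (201 CPM) and high for Kcnd1 (58.6 CPM).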

How the results depend on the processing

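Counts of genes per 2-fold call kept to within 1.5 times under RLE scaling, library totals, DESeq2 and a fit of all 16 libraries, and they moved with the filter and the threshold. With at least 10 reads required in every library, 499 genes were higher and 414 lower in the resting graft than in the challenged host, 333 rose and 437 fell on challenge, and 195 were higher and 160 lower in the resting graft than in the resting host. Activation genes were then 30 held, 8 held in part, 196 not held and 99 undecided. Falling genes were 58 already low, 4 low in part and 235 not low. That filter left fewer genes, and why the classes shrank unequally was not tested. Without a threshold on the fold these counts were 1971, 1810, 1669, 1750, 1039 and 1031, then 231, 71, 1077 and 290, then 372, 120 and 1021. Without a filter 881 genes were higher in the resting graft than in the resting host and 329 falling genes were undecided. limma gave 65 held activation genes, and separate fits for each pair of groups gave 64 held activation genes with 90 falling genes already low and 14 low in part, over the genes tested in all of those fits. The cause of the lower held counts was not tested. With the mouse as a replicate block, 512 genes were higher and 388 lower in the resting graft than in the resting host, with 88 activation genes held over the genes tested in both fits. Among named genes the block ended the call of Gm4951 (0.97), added calls for Ch25h (1.10) and Ttr (1.42) and turned Npnt (-0.014). Leaving out 1 library gave 1116 to 1285 genes higher and 818 to 921 lower in the resting graft than in the challenged host, 91 to 110 activation genes held and 349 to 449 not held. The block changed no other call of a named gene. Directions turned only for gene differences that had not been called. These were Cd69 (0.087 with limma) and Adgrg1 (-0.00034 with library totals, -0.029 with limma) against the challenged host, and against the resting host Il12b (0.083 with DESeq2), Socs2 (-0.11 with limma), H2-Ob (-0.069 with library totals, -0.085 with limma, -0.054 without a filter), Npnt (-0.023, -0.15 and -0.015 in that order) and Isg15 (-0.063 with library totals, -0.050 without a filter). Log2 fold changes that turned when 1 library was left out are given by their lowest and highest value. For the resting graft against the challenged host they ran Cd69 from -0.31 to 0.56, Jam2 from -1.47 to 0.012, Ttr from -1.24 to 0.092, Gm13889 from -0.80 to 0.040, Adgrg1 from -0.086 to 0.15, Irf7 from -0.051 to 0.22 and Cxcl16 from -0.11 to 0.30. For challenged against resting host they ran S100a9 from -0.34 to 2.24, Cmah from -1.43 to 1.52, Mndal from -1.77 to 0.96, Mgl2 from -0.76 to 0.56, Cd36 from -0.33 to 1.18, H2-Eb1 from -0.32 to 0.26 and Bst2 from -0.14 to 0.22. For the resting graft against the resting host they ran Tnfaip3 from -0.087 to 0.36, Il12b from -0.62 to 0.60, Socs2 from -1.15 to 0.77, H2-Ob from -0.20 to 0.12, Il1r2 from -1.41 to 0.082, Klf9 from -0.012 to 0.64, Pik3ip1 from -0.35 to 0.11, Trem1 from -0.94 to 0.74, Npnt from -0.39 to 0.28 and Isg15 from -0.13 to 0.14. Depth limits genes of low level, since 3 reads equal 3.02 to 5.40 CPM in resting graft libraries and 2.99 to 4.17 CPM in those of the challenged host.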
